A study of Mus musculus with 4 samples.

Results

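Class I endogenous retroviruses are the remains of gammaretrovirus-like infections of the germ line, and the deposited tables of mouse sperm small RNA name them with the tag _ERV1_. Every repeat feature carrying that tag in either table was taken, which gave 47 of the 498 repeat features and of the 2150 small RNA features in all. Of the 47, 37 were listed in the replicate 1 table, 45 in the replicate 2 table and 35 in both. Where a table did not list an element, 0 was used.

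The libraries came from sperm of the cauda epididymis, where sperm are stored, of adult C57BL/6 mice. There were 2 mice of the original cross and 2 of the extra cross to wildtype, and each mouse gave 1 library. By its title the study sets sperm in which a LoxP site, the target of Cre recombinase, can be silenced against sperm in which it is not. The labels give no allele, promoter or Cre line for either cross and do not say which cross was susceptible.

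An intact element of this class has 2 long terminal repeats (LTRs), which hold its promoter, around an internal region with the gag, pol and env genes. Most genomic copies are broken or reduced to a lone LTR. In the germ line such elements are held silent by DNA methylation, by repressive chromatin recruited through zinc finger proteins, and by piRNAs, short RNAs that guide PIWI proteins to transposon transcripts. Mouse families differ in age and activity: RLTR4 is the family of murine leukaemia virus, RLTR6 is that of VL30 elements, which have lost the retroviral coding capacity but are still transcribed, and MuRRS elements carry LTRs called LTRIS.

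Values are RPM, reads scaled by the authors to library size, and are not divided by element length, so they are read between libraries and not as an order of expression among elements. The value of 1 read was 1.58 and 0.561 RPM in original-cross replicates 1 and 2, and 0.642 and 0.238 RPM in extra-cross replicates 1 and 2. A level of 10 RPM therefore stands for 6.33, 17.8, 15.6 and 42.1 reads in that order. The 47 elements together held 414, 465, 625 and 1299 read equivalents. Only 19 elements were above 0 in all 4 libraries, 18 had a mean of at least 1 RPM and 9 had a mean of at least 10 RPM, the minimum for the test. Just inside that minimum lay RNLTR21_I_ERV1_Rattus with a mean of 12.3 RPM, and just outside it RLTR4_MM_ERV1_Mus with 9.71 RPM. The last part of each name is the taxon from which the authors' repeat library describes the element: 30 names end in Mus, 13 in Rattus, and 1 each in Papio, Cavia, Ictidomys and Rodentia.

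**Figure D1:**
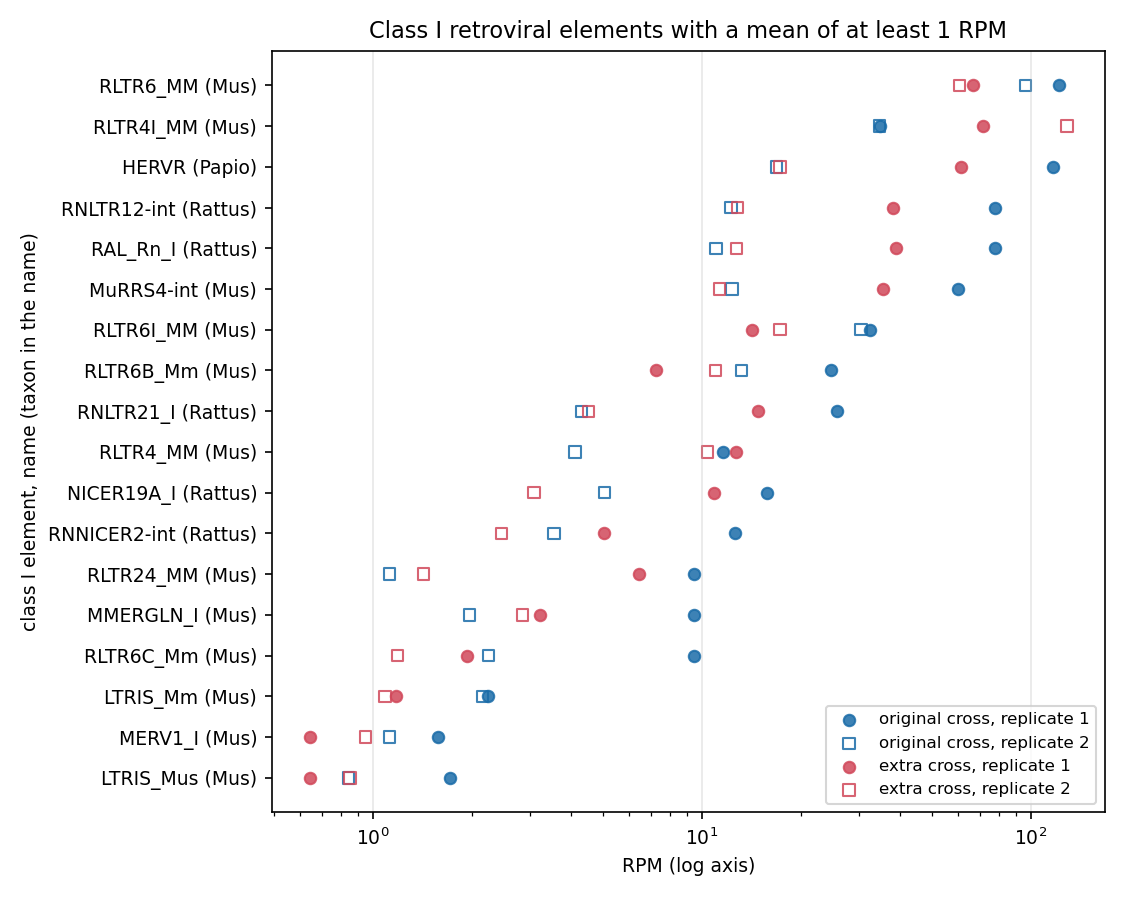
Level of each of the 18 class I elements with a mean of at least 1 RPM (rows, ordered by mean) in the 4 libraries, in RPM on a log axis. Blue marks the original cross and red the extra cross, filled circles replicate 1 and open squares replicate 2. In RLTR4I_MM both red symbols lie right of both blue ones. In HERVR and the rows like it both filled circles lie right of both open squares.

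Among the 18 elements with a mean of at least 1 RPM, 3 patterns are described, and not every element falls into one. The internal region of the murine leukaemia virus family, RLTR4I_MM_ERV1_Mus, was higher in both extra-cross libraries than in either original-cross library. All 4 features of the VL30 family RLTR6 were lower in both extra-cross libraries than in either original-cross library. A set of mostly internal regions, led by HERVR_ERV1_Papio, differed by replicate number far more than by cross. These 3 groups were chosen after their values were seen, and no single element passed the test across all features with cross as its only term.

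The test was limma, a linear model with moderated variances, on log2(RPM + 1) over all 760 small RNA features averaging 10 RPM or more, with cross as its only term. At a Benjamini-Hochberg adjusted p of 0.05 it called 0 of the 760 (0%) and 0 of the 9 class I elements. At an unadjusted p below 0.05 there were 6 features higher in the extra cross (0.789%) and 106 lower (13.9%), and 1 of the 9 elements was among the former and 0 among the latter. The crosses did not overlap in 4 of the 9 elements, 1 with the extra cross above and 3 with it below. Over the 760 features the same held for 4.47% above and 26.8% below, and over the 64 tested repeats for 1.56% above and 64.1% below. Of the 18 elements at or above 1 RPM, 1 lay above and 6 below without overlap, against 5.23% and 32.0% of the 1339 features at that level. The shares of lower elements were nearer to those of all features than to that of the tested repeats. The difference from the other repeats was not tested, and nothing particular to class I is read from these shares.

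RLTR4I_MM_ERV1_Mus, which covers the gag, pol and env part of the murine leukaemia virus family, had 34.8 and 34.7 RPM in original-cross sperm against 71.5 and 128.8 RPM in extra-cross sperm. The original-cross libraries were nearly equal, the extra-cross libraries were both higher, and the groups did not overlap. These levels stand for 22.0 and 61.8 read equivalents in the original cross and for 111 and 541.5 in the extra cross. The extra cross was 2.06-fold higher within replicate 1 and 3.71-fold higher within replicate 2. The group means were 34.7 ± 0.0523 RPM and 100.1 ± 40.5 RPM (SD, n = 2 each). The log2 fold change of RLTR4I_MM_ERV1_Mus was 1.44 ± 0.48 (SE), with a limma unadjusted p of 0.0296 and an adjusted p of 0.261. It was the only one of the 64 tested repeats whose extra-cross libraries both lay above both original-cross libraries. One other tested repeat had a larger log2 fold change, RMER15-int_ERV3_Muridae at 2.05, and its groups overlapped.

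The LTR of the same family, RLTR4_MM_ERV1_Mus, had 11.6 and 4.11 RPM in original-cross sperm against 12.7 and 10.4 RPM in extra-cross sperm. The extra cross was higher within both tables, by 0.13 on the log2 scale in replicate 1 and 1.16 in replicate 2, but the groups overlapped. Original-cross replicate 1 held 7.33 read equivalents of this LTR, and so did original-cross replicate 2. Its log2 fold change of 0.64 was not in the main test, since the mean lay below the minimum, and it was -0.0086 without original-cross replicate 2. With the minimum lowered to 1 RPM the limma adjusted p was 0.87. The internal region stood at 3.00 and 8.43 times its LTR in the original cross and at 5.61 and 12.4 times in the extra cross, so that this ratio overlapped between the crosses.

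The 4 RLTR6 features summed to 189 and 142 RPM in original-cross sperm against 90.0 and 90.3 RPM in extra-cross sperm. The sum was 2.10-fold higher in the original cross within replicate 1 and 1.57-fold higher within replicate 2. The LTR RLTR6_MM_ERV1_Mus had the highest mean RPM of the 47 features, with 122 and 96.2 RPM in original-cross sperm against 66.5 and 60.8 RPM in extra-cross sperm. The group means of this LTR were 109 ± 18.4 and 63.7 ± 4.07 RPM (SD, n = 2 each), and the groups did not overlap. Its log2 fold change was -0.76 ± 0.43 (SE; limma adjusted p = 0.738).

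The VL30 internal region, RLTR6I_MM_ERV1_Mus, had 32.4 and 30.4 RPM in original-cross sperm against 14.3 and 17.3 RPM in extra-cross sperm. Libraries of 1 cross lay close together, with group means of 31.4 ± 1.43 and 15.8 ± 2.15 RPM (SD, n = 2 each), and the groups did not overlap. The log2 fold change was -0.96 ± 0.41 (SE; limma adjusted p = 0.42). LTR and internal region kept similar proportions: RLTR6_MM_ERV1_Mus stood at 3.77 and 3.16 times RLTR6I_MM_ERV1_Mus in the original cross and at 4.67 and 3.52 times in the extra cross.

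The LTR variants RLTR6B and RLTR6C had fewer reads. RLTR6B_Mm_ERV1_Mus had 24.8 and 13.2 RPM in original-cross sperm against 7.28 and 11.02 RPM in extra-cross sperm, with a log2 fold change of -0.94 ± 0.54 (SE; limma adjusted p = 0.746). Its difference was large in replicate 1 (3.40-fold) and small in replicate 2 (1.20-fold). RLTR6C_Mm_ERV1_Mus had 9.48 and 2.24 RPM against 1.93 and 1.19 RPM, which in the extra cross is 3.0 and 5.0 read equivalents.

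A lower level in the extra cross was common among repeats and was not particular to RLTR6. Of the 55 tested repeats outside class I, 48 had a negative log2 fold change, with a median of -0.47. Among them were all 26 L1 and 10 of the 11 SINE features. The other retroviral classes shared it less, with 2 of 5 class II (ERV2) and 3 of 5 class III (ERV3) features negative. Of the 9 class I elements 8 had a negative value, with a median of -0.44. The class I median depended on single libraries: it was 0.81 without original-cross replicate 1 and 0.36 without extra-cross replicate 2. The median over all 760 features was -0.12. Among the 64 tested repeats RLTR4I_MM_ERV1_Mus ranked 2 from the top, while the RLTR6 features ranked 53 (RLTR6_MM), 59 (RLTR6B_Mm) and 60 (RLTR6I_MM). With each class rescaled on its own by median ratios, which divides out a shift shared by the repeats, the log2 fold changes of RLTR6_MM, RLTR6I_MM and RLTR6B_Mm were -0.19, -0.40 and -0.40 and that of RLTR4I_MM was 2.01.

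**Figure D2:**
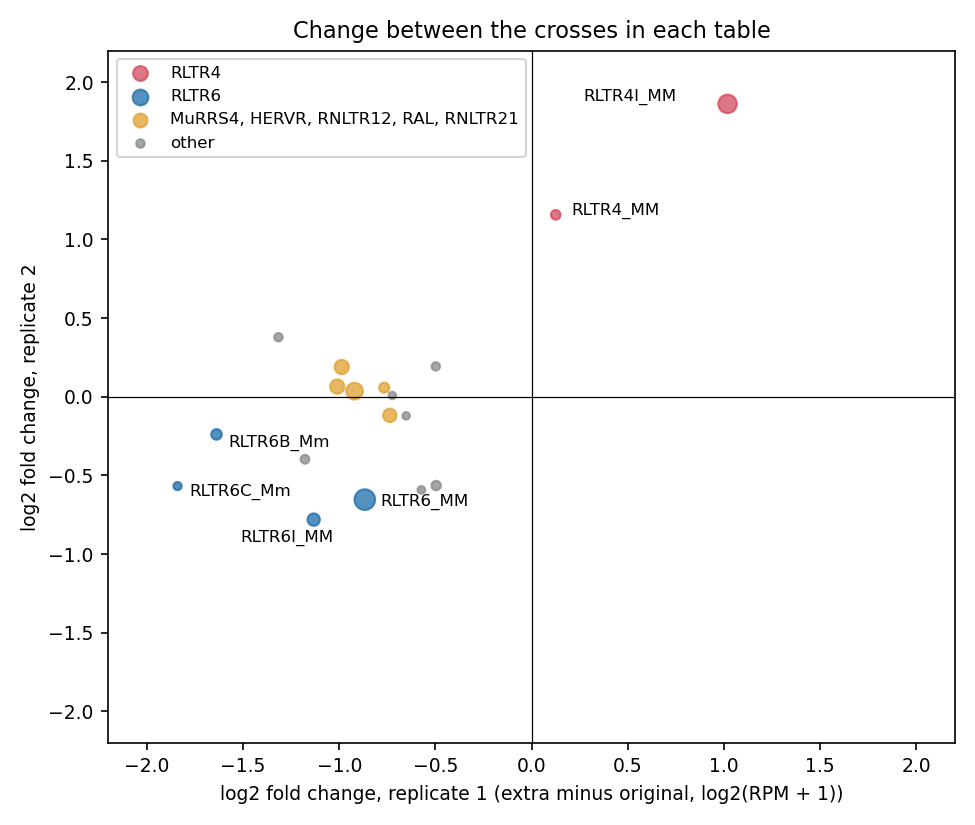
Log2 fold change between the crosses, extra minus original on the log2(RPM + 1) scale, in replicate 1 (horizontal axis) and replicate 2 (vertical axis) for the 18 elements with a mean of at least 1 RPM. Point area grows with mean RPM. The RLTR4 features lie at the upper right, the RLTR6 features at the lower left, and the group of HERVR lies left of 0 on the horizontal axis and close to 0 on the vertical axis.

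The ratio of 2 features within a library does not depend on how that library was scaled. RLTR4I_MM_ERV1_Mus stood at 0.284 and 0.361 times RLTR6_MM_ERV1_Mus in the original cross and at 1.07 and 2.12 times in the extra cross. Against the VL30 internal region the ratios were 1.07 and 1.14 in the original cross and 5.02 and 7.45 in the extra cross. Neither ratio overlapped between the crosses. That follows from the levels above, where RLTR4I_MM lay higher and both RLTR6 features lay lower in the extra cross without overlap. The ratios are therefore not independent support. With 2 libraries against 2, an exact two-sided permutation test cannot give a p below 0.333, so no test of a ratio or sum was made.

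**Figure D3:**
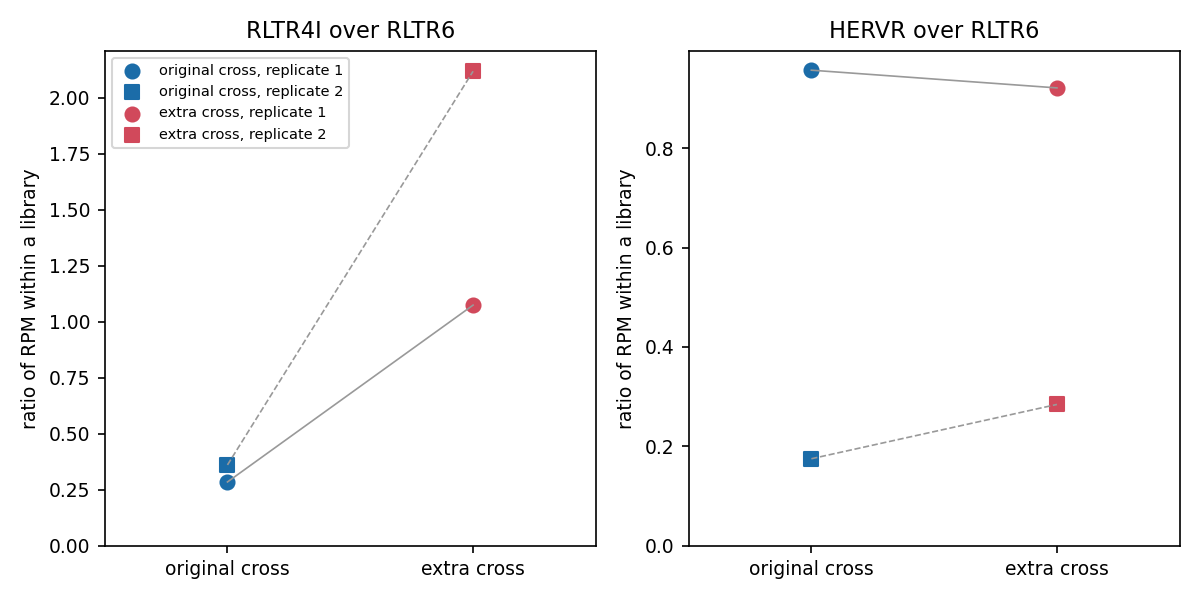
Ratio of RPM within each library for RLTR4I_MM over RLTR6_MM (left) and HERVR over RLTR6_MM (right), by cross. Circles are replicate 1 and squares replicate 2, and lines join libraries of 1 table. The left ratio is 0.284 and 0.361 in the original cross and 1.07 and 2.12 in the extra cross, and the right ratio separates by replicate.

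The third pattern followed the replicate number. HERVR_ERV1_Papio, which shares its name with human HERV-R, had 117 and 61.3 RPM in replicate 1 (original, then extra cross), and 16.8 and 17.3 RPM in replicate 2. RNLTR12-int_ERV1_Rattus had 78.0 and 38.2 RPM in replicate 1 and 12.2 and 12.9 RPM in replicate 2. RAL_Rn_I_ERV1_Rattus had 78.0 and 38.8 RPM in replicate 1 and 11.03 and 12.7 RPM in replicate 2. All 3 were higher in both replicate 1 libraries, and highest in original-cross replicate 1.

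MuRRS4-int_ERV1_Mus, an internal region of the MuRRS family, had 60.0 and 35.6 RPM in replicate 1 and 12.3 and 11.3 RPM in replicate 2. RNLTR21_I_ERV1_Rattus had 25.8 and 14.8 RPM in replicate 1 and 4.30 and 4.52 RPM in replicate 2. Within the original cross these 5 features were 4.87-fold (MuRRS4-int) to 7.07-fold (RAL_Rn_I) higher in replicate 1 than in replicate 2, and they took the first 5 places among the 64 tested repeats for that ratio. Within the extra cross the ratio was 2.97 (RNLTR12-int) to 3.55 (HERVR), at places 2 to 6. Over all 64 tested repeats the median difference between replicates 1 and 2 was 0.33 on the log2 scale in the original cross and 0.095 in the extra cross.

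Between the crosses, the 5 features were lower in the extra cross of replicate 1 by 0.74 (MuRRS4-int) to 1.01 (RNLTR12-int) on the log2 scale. In replicate 2 their log2 fold changes lay between -0.12 (MuRRS4-int) and 0.19 (RAL_Rn_I). Over both replicates they lay between -0.47 and -0.35, with SE of 0.94 to 1.09 and a limma adjusted p of 0.995 for each. Their sign turned positive, at 0.085 to 0.17, with each class rescaled on its own. The crosses therefore could not be told apart in these features beyond the spread between replicates.

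The proportions between features of this set moved less than their levels. RNLTR12-int stood at 0.667 and 0.728 times HERVR in the original cross and at 0.623 and 0.744 times in the extra cross. RNLTR21_I stood at 0.221 and 0.256 times HERVR in the original cross and at 0.241 and 0.261 times in the extra cross. MuRRS4-int varied most, at 0.514 and 0.733 times HERVR in the original cross and at 0.581 and 0.654 times in the extra cross. RNLTR12-int and RAL_Rn_I had the same value in original-cross replicate 1, at 49.3 read equivalents each. Values at fractions of a read were common, which sharing of a read among features would give. Whether these elements share reads was not tested, and they are not counted as independent.

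Summed levels of marker microRNAs were compared beside these patterns, since a sperm preparation can hold other cells. All 25 markers of 4 cell types were above 0 in every library, those of germ cells included. The 8 blood markers summed to 6520 and 11186 RPM in replicate 1 (original, then extra cross) against 1229 and 1136 RPM in replicate 2. The blood sum in replicate 1 was 5.30 (original cross) and 9.84 (extra cross) times that in replicate 2. The same ratios were 2.14 and 1.96 for the epithelial markers and 2.55 and 1.61 for the germ cell markers. For the smooth muscle and stroma markers they were 1.36 and 0.666. The miRNA class as a whole was also higher in replicate 1 in both crosses. That class summed to 275809 and 441544 RPM in replicate 1 against 117322 and 140437 RPM in replicate 2. The 5 epididymal epithelium markers summed to 4394 and 2055 RPM in original-cross sperm against 10408 and 5315 RPM in extra-cross sperm, and the 6 smooth muscle and stroma markers to 8547 and 6264 against 3382 and 5078 RPM. The 6 germ cell markers summed to 2094 and 822 RPM against 2084 and 1297 RPM. Reads on piRNA loci came to 16391 and 8826 RPM in original-cross sperm against 4068 and 3684 RPM in extra-cross sperm. The part of these in the class I values was not tested, and in such bulk samples fewer cells of a type and less RNA per cell cannot be told apart.

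Within the sum, the RLTR4 and RLTR6 features differed between the crosses in opposite directions. The difference of group means, extra minus original, was 69.1 RPM for the RLTR4 features and -75.3 RPM for the RLTR6 features. It was -84.0 RPM for the 5 features of the HERVR set (HERVR, RNLTR12-int, RAL_Rn_I, MuRRS4-int and RNLTR21_I), with SDs of 214 RPM (original) and 92.0 RPM (extra). The sum of this set was lower in the extra cross within replicate 1 (0.526-fold) but not within replicate 2 (1.03-fold), so it has no shared direction. The 47 elements summed to 655 and 261 RPM in original-cross sperm against 401 and 309 RPM in extra-cross sperm, lower in the extra cross within replicate 1 (0.613-fold) and higher within replicate 2 (1.18-fold). The log2 ratio of the group means was -0.37, but -0.0083 with median-ratio scaling and 0.45 without original-cross replicate 1, so the sum gives no stable direction. As a share of all repeat RPM they took 5.72% and 5.59% in the original cross and 5.19% and 5.63% in the extra cross. The group means of this share were 5.65 ± 0.092% and 5.41 ± 0.311% (SD, n = 2 each), and the groups overlapped. Without RLTR4I_MM_ERV1_Mus the share was 5.41% and 4.84% in the original cross and 4.26% and 3.28% in the extra cross, and the groups no longer overlapped. That element was already known to be higher in the extra cross, so leaving it out lowers the extra-cross share by construction. Class II elements (ERV2) took 8.26% and 13.1% against 11.1% and 12.4% of repeat RPM, and class III elements (ERV3) 1.78% and 3.35% against 1.76% and 2.39%.

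**Figure D4:**
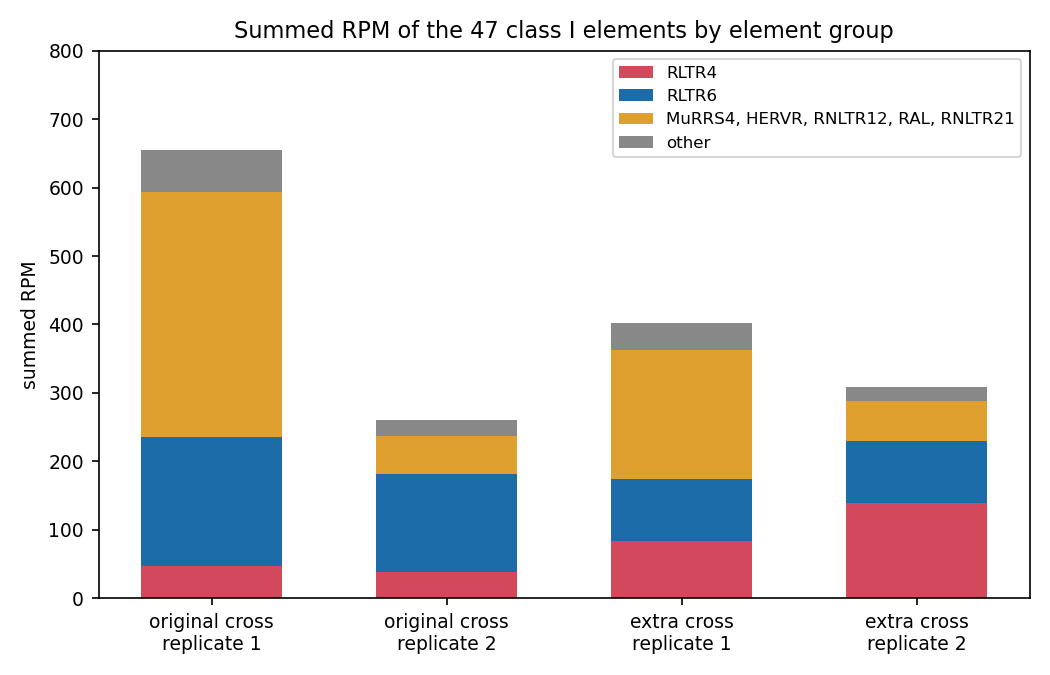
Summed RPM of the 47 class I elements in each library, stacked by element group. The bars reach 655, 261, 401 and 309 RPM. The orange segment is largest in the replicate 1 libraries, the red RLTR4 segment in the extra cross and the blue RLTR6 segment in the original cross.

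The makeup of the class I signal differed accordingly. The RLTR4 features made up 7.08% and 14.9% of it in the original cross and 21.0% and 45.1% in the extra cross. The RLTR6 features made up 28.8% and 54.5% in the original cross and 22.4% and 29.2% in the extra cross, so that their share overlapped between the crosses. The 5 features of the HERVR set made up 54.8% and 47.01% in replicate 1 and 21.8% and 19.0% in replicate 2, original cross first. Features named for taxa other than Mus and Rodentia, 16 in all, took 50.4% and 43.8% in replicate 1 and 20.6% and 18.0% in replicate 2.

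By part of the element, 24 features are LTRs by name, 17 are internal regions and 6 could not be assigned. The LTRs summed to 185 and 127 RPM in original-cross sperm against 100.2 and 91.9 RPM in extra-cross sperm, and the groups did not overlap. The internal regions summed to 352 and 117 RPM in original-cross sperm against 238 and 199 RPM in extra-cross sperm, and the groups overlapped. The 2 LTRs at or above 10 RPM on average were both RLTR6 features, so the first of these sums is mainly the RLTR6 result in another form.

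Of the 9 elements with a mean between 1 and 10 RPM, 5 were lower in the extra cross in both tables, 1 was higher in both (the RLTR4 LTR) and 3 were mixed. Over the 1339 features with such a minimum, 47.9% were lower in both tables and 17.6% were higher. Internal regions of the rat-named NICER elements leaned towards replicate 1: NICER19A_I_ERV1_Rattus had 15.8 and 10.9 RPM in replicate 1 and 5.05 and 3.09 RPM in replicate 2, original cross first. RNNICER2-int_ERV1_Rattus had 12.6 and 5.03 RPM in replicate 1 and 3.55 and 2.46 RPM in replicate 2. RLTR24_MM_ERV1_Mus, an LTR, did so more strongly, with 9.48 and 6.42 RPM in replicate 1 and 1.12 and 1.43 RPM in replicate 2.

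The GLN family, whose replication starts from a glutamine tRNA, was represented mainly by its internal region. MMERGLN_I_ERV1_Mus had 9.48 and 1.96 RPM in original-cross sperm against 3.21 and 2.85 RPM in extra-cross sperm, and the groups overlapped. Its LTR, MMERGLN_LTR_ERV1_Mus, stayed at or below 0.642 RPM and was listed at 0 in 2 libraries. MERV1_I_ERV1_Mus was at 1.58 and 1.12 RPM against 0.642 and 0.951 RPM, which is 1.00 to 4.00 read equivalents per library.

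The 6 LTRIS features, LTRs of the MuRRS family, summed to 5.53 and 5.24 RPM in original-cross sperm against 1.82 and 4.08 RPM in extra-cross sperm. LTRIS_Mm_ERV1_Mus had 2.24 and 2.15 RPM against 1.18 and 1.09 RPM, and its groups did not overlap, on 1.42 to 4.58 read equivalents. LTRIS_Mus_ERV1_Mus had 1.71 and 0.842 RPM against 0.642 and 0.852 RPM, and its groups overlapped. MuRRS4-int was 4.87-fold higher in replicate 1 in the original cross and 3.15-fold in the extra cross, against 1.04-fold and 1.08-fold for LTRIS_Mm. LTRIS_Mus in replicate 1 stood at 2.03 and 0.753 times its replicate 2 level. The LTRIS features had too few reads to show whether they followed the replicate number.

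The remaining 29 elements had means of at most 0.921 RPM and no value above 3.21 RPM. Together they held 7.91 and 7.39 RPM in original-cross sperm against 10.5 and 7.99 RPM in extra-cross sperm. At these levels a difference between the crosses was not detectable. ERV1A-CPo_I_ERV1_Cavia had the highest mean of them and was listed at 0 in both original-cross libraries, with 3.21 and 0.476 RPM in the extra cross, which is 5.0 and 2.0 read equivalents. The 3 RLTR1 LTRs named for Mus summed to 1.58 and 1.403 RPM against 1.28 and 1.43 RPM. The 3 RLTR41 features and the 2 RLTR30 features each summed to at most 1.12 RPM in any library, and MURVY_LTR_ERV1_Mus, of the Y-linked MuRVY family, was listed in the replicate 2 table only, at 0.561 and 0.476 RPM. Identical values in all 4 libraries were found in 5 groups that hold 13 of these elements, such as RLTR41B_ERV1_Mus with RMER2_ERV1_Mus, and these are not independent observations.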

How the data were processed

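Small RNA of cauda sperm was sequenced from 4 mice, 2 per cross, with the TruSeq small RNA kit in 1 lane, per the labels' protocols. CASAVA 1.8.2, Bowtie 1.1.2 and the build mm10 are named in the submitters' processing notes, with no role or order. The repeat library was not given in the sources used here, nor was the rule for reads with several matches.

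Values were deposited as RPM, scaled by the authors. The 2 tables, 1 per replicate number, were joined, and features missing from 1 table were given 0 there. The commonest miRNA value of a column was taken as 1 read, so that the RPM scale rests on 632859 to 4205692 reads. Because of fractional values, no read counts were recovered and no count model was run. For all tRNA, miRNA, piRNA, rRNA and repeat features averaging 10 RPM or more (760 features), log2(RPM + 1) was fitted in limma 3.58.1 (R 4.3.3) with a variance trend and Benjamini-Hochberg adjustment at 0.05. Fold changes on this scale understate those of low features. RefSeq features were not used here. The fit was tested on simulated data, where it missed most of the smaller changes and some of the larger ones, and its power varied between draws. The simulated noise was independent between libraries, whereas same-numbered libraries of these data deviated together. The lack of a call therefore does not show that levels did not differ. Tables and plots were made with Python 3.11.15, pandas 2.3.3, numpy 2.4.6 and matplotlib 3.10.9.

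The members, lists and settings were chosen with earlier results of these data known. Named are members with a mean of at least 10 RPM, the 10 with the highest mean, up to 5 in each direction with the largest fold change in the same direction in both tables (mean at least 1 RPM), and members of listed mouse families. Alternatives changed the pseudocount, minimum, scaling, variance trend, features fitted, replicate block and libraries.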

Additional observations from a re-analysis of the deposited data

How the results depend on the processing

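RLTR4I_MM_ERV1_Mus stayed higher in the extra cross and the RLTR6 features stayed lower under every alternative run. With 1 library left out in turn, the log2 fold change of RLTR4I_MM_ERV1_Mus ranged from 1.02 to 1.86. Its limma adjusted p ranged from 0.19 to 0.897 over all alternatives other than the replicate block. With 1 library left out, the median over the 9 tested elements ranged from -1.52 to 0.81, the log2 ratio of summed RPM (main value -0.37) from -0.88 to 0.45, and the difference in percent of repeat RPM (main value -0.25 percentage points) from -0.47 to -0.027. The median was positive without original-cross replicate 1 (0.81) and without extra-cross replicate 2 (0.36), when the difference between the tables enters the comparison. The same holds for HERVR (-1.81 to 0.92), RNLTR12-int (-1.76 to 0.81), RAL_Rn_I (-1.76 to 0.96), MuRRS4-int (-1.52 to 0.67) and RNLTR21_I (-1.52 to 0.82). With each class scaled on its own these 5 were at 0.12, 0.085, 0.16, 0.13 and 0.17. Without RLTR4I_MM_ERV1_Mus, which was already known to be higher in the extra cross, the difference in percent of repeat RPM was -1.36. Median-ratio scaling moved the median of all features from -0.12 to 0.19, scaling to the sum of the 5 classes moved it to -0.25, and the class I median was then -0.13 and -0.58.

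Replicate numbers are shared by the crosses, but the labels do not say that they mark a litter or day. Deviations of same-numbered libraries correlated at 0.872 over 760 features, with only 2 numbers. With a replicate block, limma called 171 features, 36 higher (4.74%) and 135 lower (17.8%), and 1 class I element, RLTR4I_MM_ERV1_Mus (log2 fold change 1.44, adjusted p = 0.000372). With so few libraries, that p rests mainly on a variance shared over all features and little on the element's own spread. With the block and no variance trend, an alternative chosen after seeing the data, 152 features and 2 class I elements passed, RLTR4I_MM_ERV1_Mus (adjusted p = 0.00136) and RLTR6I_MM_ERV1_Mus (-0.96). The other alternatives called 0 features, with 14 (repeats fitted alone) to 210 (no minimum) at an unadjusted p below 0.05. Count models were not run, since the values are RPM. The shallowest library is original-cross replicate 1, in which 10 RPM is 6.33 reads.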
